A study of Rattus norvegicus with 9 samples.

Results

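The genes of collagens, laminins and integrins, the structural proteins of the extracellular matrix and the receptors by which cells hold on to it, were followed in rat adrenal zona glomerulosa cells given angiotensin II (Ang II) or raised potassium. Members were all probe sets with 1 gene symbol in the platform annotation that was Col and a digit, Lama, Lamb or Lamc and a digit, or Itga or Itgb and a digit or 1 of the letters m, x, l, v, e and d. The rule found 112 probe sets of 77 genes among the 31042 probe sets that were not array controls (77 of 14217 genes named by a single symbol). They were 58 probe sets of 41 collagen genes, 14 of 10 laminin genes and 34 of 22 integrin genes. Its letters also took 6 probe sets of 4 genes that encode no integrin subunit, Itgb1bp1, Itgb1bp2, Itgb3bp and Itgbl1, and these are given apart.

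Collagens are triple-helical proteins. Types I, III and V form the fibrils of connective tissue, type IV forms the network of basement membranes, type VI forms beaded filaments, and types XV and XVIII carry glycosaminoglycan chains at basement membranes. Laminins are trimers of an alpha, a beta and a gamma chain that form the other network of basement membranes. Integrins are pairs of an alpha and a beta subunit that span the membrane, bind matrix proteins outside and are coupled to actin inside through talin, kindlin and other adaptors. In the adrenal cortex, basement membrane surrounds clusters of steroid-making cells and the dense capillaries between them, and a fibroblast capsule covers the zona glomerulosa, the outer layer that makes aldosterone.

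The study used 3 independent preparations of freshly isolated cells, dispersed with enzymes and by mechanical means. Each gave 1 untreated tube, 1 tube with Ang II at 100 nM and 1 tube with potassium at 16 mM, incubated for 2 h at 37 °C in the same albumin-containing medium, so each group held 3 arrays and the series 9. The labels used here do not say the strain, sex or age of the rats, or how many animals made up a preparation. RNA of each tube was hybridised to 1 Affymetrix Rat Genome 230 2.0 array, and each probe set gave 1 linear signal per array, which is comparable between tubes but not between probe sets. In all lists of 3 values below, the order is preparation 1, 2 and 3.

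Values were compared as log2(signal + 16), a scale that understates changes of dim probe sets. A probe set was tested if its 9-array mean exceeded the 40th percentile of such means, equal to a signal of about 81.9, which left 18625. Of the 112 members 73 passed, namely 34 of collagens, 10 of laminins, 25 of integrins and 4 of the genes taken by letters only. Log2 fold changes are from 1 limma model of all 9 arrays with the preparation as a block. They are given with standard errors (SE), and p-values are adjusted by the Benjamini-Hochberg method over all 18625 probe sets. Signals are given with standard deviations (SD, n = 3). Of all tested probe sets, 35.3% after Ang II, 38.3% after potassium and 38.9% between the stimuli had 1 direction in 3 of 3 preparations. The 2 groups did not overlap for 15%, 17.6% and 18.8%. Of the 73 tested members, 30.1%, 21.9% and 24.7% had 1 direction, and 11%, 5.48% and 9.59% had no overlap.

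Of 12 listed markers of zona glomerulosa, 11 had a tested probe set (Cyp11b2 was not analysed here). Their summed signal was 90302 to 97382 in the control, 95429 to 98538 in the Ang II and 96397 to 102955 in the potassium tubes. This sum holds genes that the stimuli changed. In it and in the other marker sums below, linear signals were added, so the brightest probe sets weigh most. Star passed the limma test described above as higher after Ang II and after potassium. Wnt4 passed it as lower after Ang II and lower with Ang II than with potassium. In the zona fasciculata list Mrap passed as higher after both stimuli. Markers of other cells were measured too. The 10 tested endothelial markers of 13 listed summed to 30440.0 to 38918, 30842 to 38402 and 32827 to 39996 in the same groups, the 10 summed capsule fibroblast markers (3 more are members and were left out) to 10191 to 12134, 9867 to 12680.1 and 12072 to 13435, and the 12 of 13 macrophage markers to 11525 to 15459.5, 11745 to 15107 and 9938 to 14930.1. None of the tested markers was at 0, but single signals were as low as 16.6 in the zona glomerulosa list, below the filter. In bulk RNA such as this, fewer cells of a type and less RNA per cell cannot be told apart.

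Ang II was compared with control to ask which transcripts the hormone changed within 2 h. Of the 73 tested member probe sets, 0 passed an adjusted p of 0.05 in limma, where 2.20% of all tested probe sets did (409 of 18625, 310 higher and 99 lower). Scaling the arrays to the median of all probe sets moved the median log2 fold change of all from -0.03 to 0.09, gave 431 higher and 33 lower calls, and called 2 members (Col18a1 and Itgav). At an unadjusted p of 0.05, 8 members were called (6 higher and 2 lower), or 11%, beside 14.5% of all. These were 3 of the 34 collagen (8.82%) and 5 of the 25 integrin probe sets (20%). The median log2 fold change was 0.02 over the members and -0.03 over all tested probe sets. For 47 of the 73 members (64.4%) the 95% interval, which is not adjusted for the number of tests, lay within a 1.5-fold change in either direction, beside 62% of all probe sets.

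The fibrillar collagens showed no called change after Ang II. Col3a1, the chain of type III collagen, had signals of 3544, 3905 and 4662 in the control tubes, 3574, 4141 and 5022 in the Ang II tubes and 3669, 3823 and 5096 in the potassium tubes. All 3 groups overlapped, and preparation 3 was the highest in each. The log2 fold change was 0.07 ± 0.07 after Ang II (95% interval -0.08 to 0.21) and 0.05 ± 0.07 after potassium (-0.09 to 0.19). Of the type I chains, the brighter probe set of Col1a1 differed from control by -0.07 ± 0.10 and that of Col1a2 by 0.07 ± 0.10 after Ang II, and by 0.07 ± 0.10 and 0.05 ± 0.10 after potassium. The type V chains Col5a1 and Col5a2, which regulate fibril width, differed at their brighter probe sets by 0.15 ± 0.12 and 0.09 ± 0.08 after Ang II and by -0.08 ± 0.12 and 0.06 ± 0.08 after potassium.

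The type IV collagens of basement membranes were close to control as well. Col4a1 and Col4a2 encode the chains of the main type IV trimer and start from opposite strands of 1 short stretch of DNA, shown here because both genes were measured and neither was called. In the RefSeq windows of build GRCr8 the starts leave 76 bases between them at chr16:84885521-84885596, given 5′ to 3′ on the strand of Col4a1 with a GGGCGG motif (here its reverse complement) in capitals.
Col4a1-Col4a2: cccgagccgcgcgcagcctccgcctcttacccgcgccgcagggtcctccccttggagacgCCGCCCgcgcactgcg
The motif GGGCGG, searched on both strands, was present in 30.5% of all RefSeq windows of the same length before a start, and CCAAT, present in 34% of them, was not found in this stretch.

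The brighter probe set of Col4a1 had signals of 2942, 2763 and 2966 in the control tubes, 2859.7, 3108 and 3249 in the Ang II tubes and 2675, 2897 and 3392 in the potassium tubes. That of Col4a2 had signals of 1718, 1878 and 1988 in the control tubes, 1843, 1896 and 1725 in the Ang II tubes and 1733, 1528 and 2147 in the potassium tubes. At these 2 probe sets the groups overlapped. The dimmer probe set of Col4a1 was at 1956, 2206 and 2188 in the control tubes, 2307, 2365 and 2287 in the Ang II tubes and 2174, 1896 and 2426 in the potassium tubes, with every Ang II tube above every control tube and an adjusted p of 0.54 after Ang II. Log2 fold changes of Col4a1 at its 2 probe sets were 0.09 ± 0.08 and 0.13 ± 0.09 after Ang II and 0.04 ± 0.08 and 0.03 ± 0.09 after potassium, and those of Col4a2 were -0.03 ± 0.10 and -0.06 ± 0.10. Col4a5, a chain of the minor type IV network, differed by -0.07 ± 0.09 and 0.06 ± 0.09.

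Col18a1, whose product carries the endostatin fragment at its end, was the member with the smallest p after Ang II. The dimmer of its 2 probe sets had signals of 79.3, 162 and 83.7 in the control tubes, 153, 255 and 213 in the Ang II tubes and 190.5, 193 and 171 in the potassium tubes. The control tubes of preparations 1 and 3 were the lowest of the 9, and the control tube of preparation 2 was above the Ang II tube of preparation 1, so the groups overlapped. The log2 fold change after Ang II was 0.88 ± 0.23 (adjusted p = 0.070), higher in 3 of 3 preparations. After potassium it was 0.75 ± 0.23 (adjusted p = 0.080), with no overlap between the groups. It passed the test after Ang II with quantile normalization (adjusted p = 0.035), with arrays scaled to the median of all probe sets (0.016) and without control replicate 2 (0.047), and after potassium in the same 3 settings (0.041, 0.027 and 0.049). The brighter probe set of Col18a1 had signals of 237, 179 and 203 in the control tubes, 246, 348 and 217 in the Ang II tubes and 173, 310.4 and 341 in the potassium tubes. Its log2 fold changes were 0.34 ± 0.23 and 0.34 ± 0.23 with an adjusted p of 0.55 and 0.48, and its groups overlapped.

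Among the collagens that associate with fibrils, Col16a1 was at 620.0, 1035 and 707 in the control tubes, 532, 643 and 586 in the Ang II tubes and 627, 713 and 617 in the potassium tubes. The control tube of preparation 2 was the highest of the 9, and the groups overlapped. In 3 of 3 preparations the Ang II tube was below the control tube, but the log2 fold change of -0.38 ± 0.12 after Ang II did not pass the test (adjusted p = 0.13). After potassium it was -0.23 ± 0.12 (adjusted p = 0.32). Col25a1, a membrane-spanning collagen, had log2 fold changes of 0.27 ± 0.10 after Ang II and 0.19 ± 0.10 after potassium (adjusted p = 0.22 and 0.35), and its signals of 642, 577 and 658 in the control tubes lay below all 6 others. Col12a1 (9-tube range 1121 to 1991), Col13a1 (1236 to 1496), the brighter probe set of Col14a1 (347 to 633), Col6a1 (571 to 897) and Col8a2 (544 to 793) differed from control by 0.15, 0.06, 0.09, 0.00 and 0.02 after Ang II and by 0.17, 0.06, -0.05, 0.03 and 0.09 after potassium. Col15a1, which lies close to Col18a1 in structure, was at 173, 228 and 194 in the control tubes, 97.1, 197 and 298 in the Ang II tubes and 211, 219 and 263 in the potassium tubes. Its groups overlapped, with log2 fold changes of -0.12 ± 0.24 and 0.21 ± 0.24. Col6a2 and Col6a3, the other tested chains of type VI collagen, ranged over 181 to 446 and 293 to 391 and differed by -0.10 and -0.05 after Ang II. Over the 34 collagen probe sets the log2 fold change ran from -0.54 (Col22a1) to 0.88 (Col18a1) after Ang II and from -0.58 (Col22a1) to 0.75 (Col18a1) after potassium, with medians of 0.06 and 0.04.

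The laminin chains gave 0 calls among 10 probe sets in each of the 3 comparisons in limma, beside 2.20%, 5.36% and 4.79% of all tested probe sets. At an unadjusted p of 0.05 the counts were 0, 0 and 1, beside 14.5%, 18.8% and 16.2% of all. So few probe sets give no rate to set against these shares. Lamb1, Lamb2 and Lamc1, beta and gamma chains of basement membrane laminins, had log2 fold changes of 0.03 ± 0.10, -0.03 ± 0.09 and 0.07 ± 0.08 after Ang II and of -0.07 ± 0.10, 0.00 ± 0.09 and 0.00 ± 0.08 after potassium (for Lamc1 at its brighter probe set). Lama4, the alpha chain typical of capillary basement membranes, was at 754, 763 and 883 in the control tubes, 873, 811 and 870.4 in the Ang II tubes and 823, 867 and 889 in the potassium tubes, with overlapping groups and log2 fold changes of 0.09 ± 0.10 and 0.10 ± 0.10. Lama2 differed by -0.02 ± 0.11 and -0.06 ± 0.11. The brighter probe set of Lama5 was at 305, 464 and 375 in the control tubes, 260.3, 331 and 394 in the Ang II tubes and 312, 475 and 469 in the potassium tubes. It was lower after Ang II than after potassium in 3 of 3 preparations, the 1 laminin value with an unadjusted p under 0.05 (-0.33 ± 0.14, adjusted p = 0.26).

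**Figure D1:**
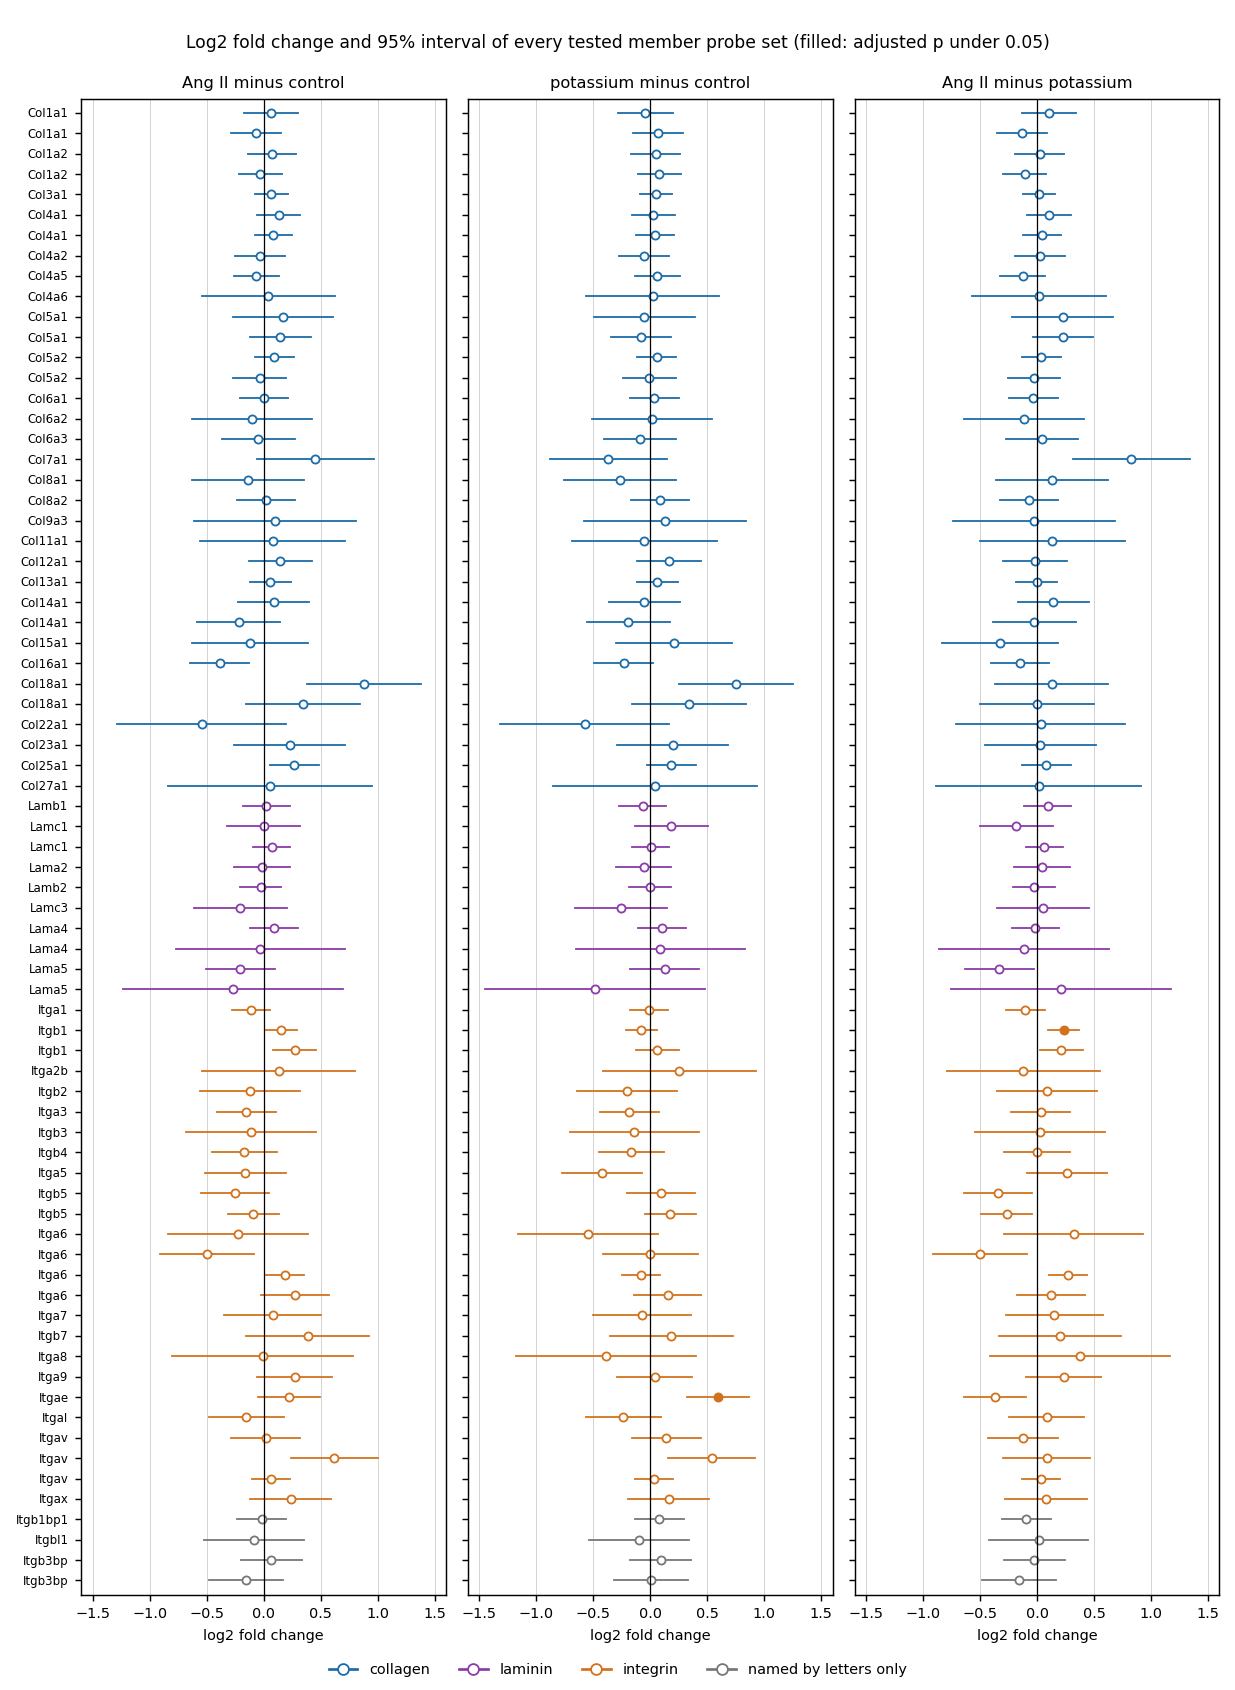
Log2 fold change (point, horizontal axis) and 95% interval (line, not adjusted for the number of tests) of each of the 73 tested member probe sets, 1 row each, in 3 comparisons; filled points passed an adjusted p of 0.05. Most points lie near 0, and the filled points are Itgae for potassium minus control and 1 of the 2 Itgb1 probe sets for Ang II minus potassium.

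Potassium was compared with control in the same way. Of the 73 members 1 passed the test, Itgae, where 5.36% of all tested probe sets did (998 of 18625, 518 higher and 480 lower, or 722 and 177 with arrays scaled to the median of all probe sets). At an unadjusted p of 0.05, 4 were called (3 higher and 1 lower), or 5.48%, beside 18.8% of all. These were 1 of the 34 collagen (2.94%) and 3 of the 25 integrin probe sets (12%). The median log2 fold change was 0.03 over the members and -0.02 over all, and for 50 of the 73 (68.5%) the 95% interval lay within 1.5-fold, beside 58.9% of all.

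Itgae encodes the alpha E subunit, which pairs with beta 7 and binds E-cadherin on epithelial cells rather than a matrix protein. Its only tested probe set had signals of 434, 346 and 504 in the control tubes, 475, 447 and 576 in the Ang II tubes and 772, 517 and 677 in the potassium tubes. Every potassium tube was above every control tube, and within each preparation the potassium tube was the highest of the 3. Itgae rose 1.51-fold after potassium, a log2 fold change of 0.59 ± 0.13 (95% interval 0.32 to 0.87, adjusted p = 0.012), from 428 ± 79.4 to 655 ± 129 (SD, n = 3). After Ang II it differed from control by 0.22 ± 0.13 (adjusted p = 0.46), and between the stimuli by -0.37 ± 0.13 (Ang II minus potassium, adjusted p = 0.14). The call after potassium ended in 6 of 20 alternative settings, among them the fit without preparation 1 (adjusted p = 0.17), without the preparation as a block (0.099) and without control replicate 1 (0.065), control replicate 2 (0.055) or potassium replicate 1 (0.12). The subunit it pairs with, Itgb7, was at 81.8, 107 and 164 in the control tubes, 137, 159 and 164 in the Ang II tubes and 76, 148 and 194 in the potassium tubes and had a log2 fold change of 0.18 ± 0.25. The 5 tested T and B lymphocyte markers of 11 listed summed to 1260.4 to 1713 in the control, 1299 to 1637 in the Ang II and 1209.5 to 1753 in the potassium tubes, and their part in the Itgae value was not tested.

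The 250 bases before the RefSeq start of the 2 genes that passed a test, Itgae and Itgb1, are given from build GRCr8, 5′ to 3′ on the strand of the gene, which is the plus strand for both. They lie at chr10:58203118-58203367 (Itgae) and chr19:73602027-73602276 (Itgb1). Capitals mark TGACG, the half-site of the cyclic AMP response element, which the factor CREB binds.
Itgae: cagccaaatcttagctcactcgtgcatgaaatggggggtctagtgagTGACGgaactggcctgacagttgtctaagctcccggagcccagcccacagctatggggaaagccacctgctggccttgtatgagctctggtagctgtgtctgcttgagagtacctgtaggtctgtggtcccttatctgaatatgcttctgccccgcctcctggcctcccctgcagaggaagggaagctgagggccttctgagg
Itgb1: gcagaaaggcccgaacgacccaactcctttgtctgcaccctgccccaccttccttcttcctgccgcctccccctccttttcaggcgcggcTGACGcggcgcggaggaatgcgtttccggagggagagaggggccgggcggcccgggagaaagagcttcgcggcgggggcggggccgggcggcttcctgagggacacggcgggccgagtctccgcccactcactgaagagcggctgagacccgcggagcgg
Each held 1 such half-site on the strand shown, its first base 203 bases before the start in Itgae and 160 in Itgb1. Neither held the full element TGACGTCA, the AP-1 site TGANTCA or the NBRE motif AAAGGTCA of Nr4a receptors. Searched on both strands, TGACG was present in 18.2% of the 33469 RefSeq windows of this length, the full element in 1.59%, TGANTCA in 6.34% and AAAGGTCA in 1.24%. A match is a description of the letters and no measured site.

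Ang II was set directly against potassium to ask which transcripts the stimuli left at different levels. Of the 73 members 1 passed the test, Itgb1, where 4.79% of all tested probe sets did (892 of 18625). At an unadjusted p of 0.05, 9 were called, 4 higher with Ang II and 5 lower (12.3%, beside 16.2% of all). These were 1 of the 34 collagen (2.94%), 1 of the 10 laminin (10%) and 7 of the 25 integrin probe sets (28%). The median log2 differences were 0.03 for the members and -0.01 for all.

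Itgb1 encodes the beta 1 subunit, the partner of most matrix-binding alpha subunits. The brighter of its 2 probe sets had signals of 10456, 9403 and 9424 in the control tubes, 10741, 11530.3 and 10341 in the Ang II tubes and 9530.3, 9123 and 9056 in the potassium tubes. Every Ang II tube was above every potassium tube, while the control tubes overlapped both groups. Itgb1 was 1.18-fold higher with Ang II than with potassium, a log2 difference of 0.23 ± 0.06 (95% interval 0.10 to 0.37, adjusted p = 0.049), with the same direction in 3 of 3 preparations. The second probe set was at 3851, 2870.2 and 3306 in the control tubes, 4085, 3976 and 3981 in the Ang II tubes and 3855, 3576 and 3002 in the potassium tubes. Its Ang II tubes again lay above all potassium tubes, and its difference of 0.21 ± 0.09 did not pass the test (adjusted p = 0.23). Against control the 2 probe sets had log2 fold changes of 0.16 ± 0.06 and 0.27 ± 0.09 after Ang II (adjusted p = 0.27 and 0.14) and of -0.08 ± 0.06 and 0.06 ± 0.09 after potassium. The call of Itgb1 lay close to the threshold and ended in 15 of 20 alternative settings, where it had an adjusted p of up to 0.44. Leaving out any 1 array but control replicate 2 ended it, with adjusted p-values of 0.052 to 0.29.

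**Figure D2:**
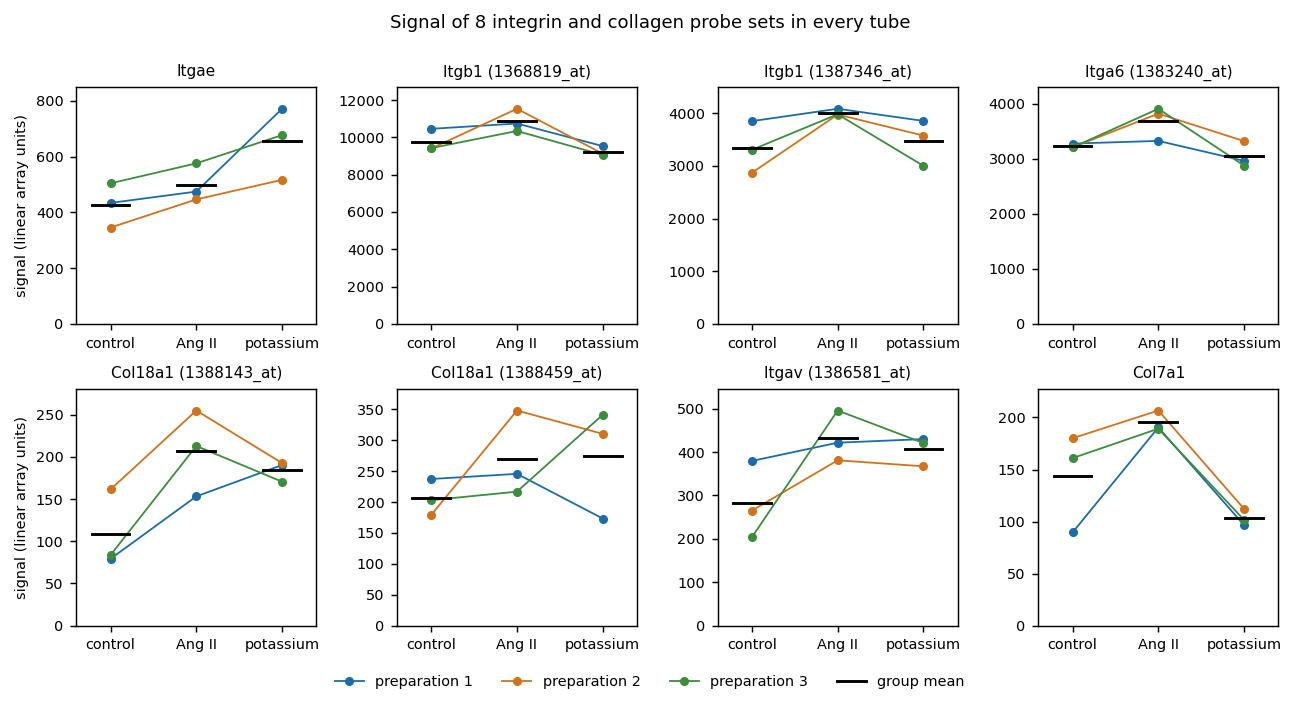
Linear signal (vertical axis, from 0) of 8 member probe sets in the control, Ang II and potassium tubes, with 1 point per tube, lines joining the tubes of a preparation and bars at group means (n = 3). All 3 potassium tubes of Itgae lie above its control tubes, and the Ang II tubes of both Itgb1 probe sets lie above the potassium tubes.

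Itga6, a laminin-binding alpha subunit that pairs with beta 1 or beta 4, had 4 tested probe sets that differed in direction. The brightest was at 3274, 3207 and 3205 in the control tubes, 3323, 3818 and 3906 in the Ang II tubes and 2960.2, 3319 and 2875 in the potassium tubes. Its Ang II tubes were above all control and all potassium tubes. The log2 difference between Ang II and potassium was 0.27 ± 0.08 (adjusted p = 0.064, and 0.043 when only probe sets above the 60th percentile were tested). Against control it was 0.19 ± 0.08 after Ang II (adjusted p = 0.28) and -0.08 ± 0.08 after potassium. The third in brightness pointed the other way, with its Ang II tubes below all control and all potassium tubes. It was at 269 ± 67 in control, 183 ± 21.9 in Ang II and 266 ± 37.2 in potassium tubes (SD, n = 3), a log2 fold change of -0.50 ± 0.19 after Ang II and a difference of -0.50 ± 0.19 between the stimuli (adjusted p = 0.24 and 0.20). The other two had log2 fold changes of 0.27 ± 0.14 and -0.22 ± 0.29 after Ang II and of 0.15 ± 0.14 and -0.55 ± 0.29 after potassium (adjusted p = 0.33 for the last). Of the 15 member genes with several tested probe sets, these had the same sign for 8 genes after Ang II, 10 after potassium and 7 between the stimuli, and the widest spread between probe sets of 1 gene was that of Itga6 each time (0.77, 0.70 and 0.82).

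Of the other laminin receptors, Itga3 had log2 fold changes of -0.15 ± 0.12 after Ang II and -0.18 ± 0.12 after potassium, Itga7 0.08 ± 0.20 and -0.07 ± 0.20, and Itgb4, the partner of alpha 6 in epithelial cells, -0.17 ± 0.13 and -0.17 ± 0.13. Itga1, a receptor subunit for collagens, was at 3854, 3280.5 and 3874 in the control tubes, 3567, 2974 and 3653 in the Ang II tubes and 3785, 3673 and 3443 in the potassium tubes. Its groups overlapped, and its log2 fold changes were -0.11 ± 0.08 (95% interval -0.28 to 0.06) and -0.01 ± 0.08 (-0.18 to 0.16).

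The subunits that bind fibronectin and vitronectin were Itga5, Itgav, Itgb3, Itgb5 and Itga8. Itgav had 3 tested probe sets. The dimmest was at 379, 265 and 204 in the control tubes, 421, 381 and 496 in the Ang II tubes and 429.8, 367 and 421 in the potassium tubes, with every Ang II tube above every control tube. Its log2 fold changes of 0.62 ± 0.18 after Ang II and 0.54 ± 0.18 after potassium did not pass the test (adjusted p = 0.098 and 0.10). They did with arrays scaled to the median of all probe sets (0.021 and 0.031) and without control replicate 1 (0.047 and 0.047). The other two, of which the brightest ranged over 1476 to 1808, differed by 0.07 ± 0.08 and 0.02 ± 0.14 after Ang II and by 0.04 ± 0.08 and 0.14 ± 0.14 after potassium. Itga5, the alpha subunit of the classical fibronectin receptor, was at 483, 729 and 603 in the control tubes, 521, 582 and 497 in the Ang II tubes and 416, 358 and 571 in the potassium tubes. It was lower with potassium in 3 of 3 preparations (-0.42 ± 0.17, adjusted p = 0.17), with overlapping groups. Both tested probe sets of Itgb5 were lower with Ang II than with potassium, by -0.27 ± 0.10 at the brighter and -0.34 ± 0.14 at the other (adjusted p = 0.21 and 0.23). Itgb3 differed from control by -0.11 ± 0.27 and -0.14 ± 0.27, and Itga8 by -0.01 ± 0.37 and -0.39 ± 0.37. Itga9, a receptor subunit for tenascin, ranged over 619 to 1157 and differed by 0.27 ± 0.15 and 0.04 ± 0.15.

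Among the other integrins of leucocytes, Itgal, Itgax and Itgb2 passed limma's test in no comparison, at an adjusted or an unadjusted p of 0.05. Of all tested probe sets 2.20%, 5.36% and 4.79% passed at the adjusted and 14.5%, 18.8% and 16.2% at the unadjusted p. Itgal and Itgax pair with Itgb2, which was at 223, 526 and 269.8 in the control tubes, 292, 279 and 303 in the Ang II tubes and 254, 306 and 260.2 in the potassium tubes, with the control tube of preparation 2 above the 8 others. Log2 fold changes after Ang II and potassium were -0.15 and -0.24 for Itgal, 0.24 and 0.16 for Itgax and -0.12 and -0.21 for Itgb2. Itgam had no tested probe set. Over the 25 integrin probe sets the medians were 0.02 after Ang II and 0.00 after potassium.

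Col7a1, the collagen of anchoring fibrils, had the widest difference between the stimuli among the members. It was at 89.6, 180.0 and 161 in the control tubes, 190.4, 207 and 189 in the Ang II tubes and 96.5, 112 and 102 in the potassium tubes. All Ang II tubes were above all control and potassium tubes. The log2 difference between Ang II and potassium was 0.83 ± 0.24 (adjusted p = 0.068, and 0.048 without control replicate 2), and against control it was 0.46 ± 0.24 after Ang II and -0.37 ± 0.24 after potassium (adjusted p = 0.42 and 0.45). Of the genes taken by letters only, Itgb1bp1, which encodes a protein that binds the tail of beta 1 integrin, differed from control by -0.02 ± 0.10 and 0.08 ± 0.10, Itgbl1 by -0.08 ± 0.20 and -0.10 ± 0.20, and the 2 probe sets of Itgb3bp by 0.07 ± 0.13 and -0.15 ± 0.15 after Ang II and by 0.09 ± 0.13 and 0.00 ± 0.15 after potassium.

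**Figure D3:**
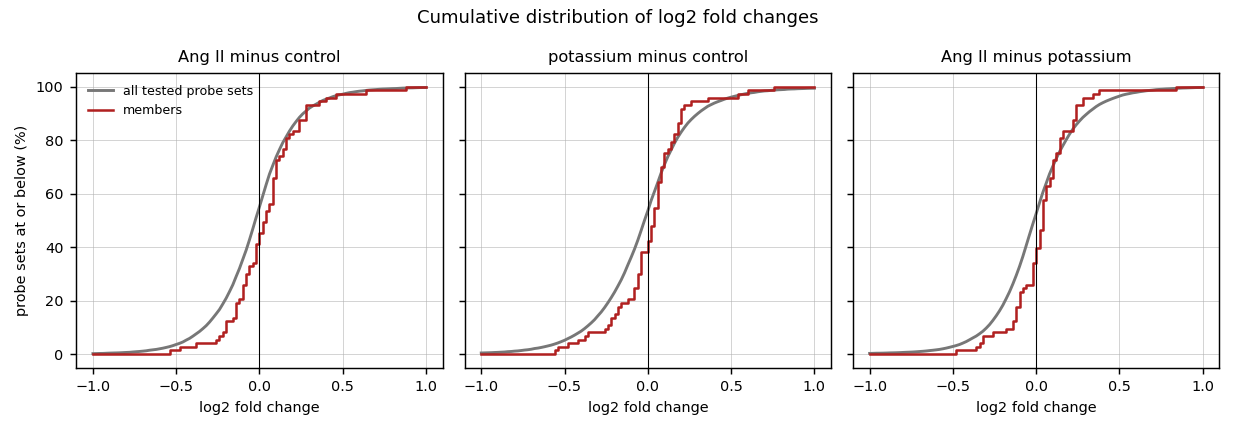
Share of probe sets (vertical axis, in percent) with a log2 fold change at or below the value on the horizontal axis, for the 73 tested members and all 18625 tested probe sets in 3 comparisons. The member curves cross the middle of the axis at 0.02, 0.03 and 0.03, beside -0.03, -0.02 and -0.01 for all probe sets.

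Levels were also compared between the cell preparations, a comparison added after the data had been seen. A moderated F test of the preparation in the same limma model called 3 of the 73 members, or 4.11%, beside 3.45% of all tested probe sets (643 of 18625). They were 2 collagens and a laminin, given as means with the SD over the control, Ang II and potassium tubes of a preparation. Each preparation was made once, so neither this SD nor the F test measures the spread of a repeated preparation. Col3a1 was at 3596 ± 65.1 in preparation 1, 3956 ± 165 in preparation 2 and 4927 ± 232 in preparation 3 (adjusted p = 0.0043). Col6a1, a chain of type VI collagen, was at 590.2 ± 20.8 in preparation 1, 822 ± 37.6 in preparation 2 and 869 ± 24.4 in preparation 3 (adjusted p = 0.011). Lamb2 was at 1867 ± 83.6 in preparation 1, 2264 ± 177 in preparation 2 and 2443 ± 159 in preparation 3 (adjusted p = 0.044). For Col6a1 the 3 tubes of preparation 1, at 571 to 613, lay below the 6 others, at 785 to 897. The calls of Col3a1, Col6a1 and Lamb2 held in 16, 13 and 8 of 19 alternative settings, and 0 members were called without preparation 1. Without the control, Ang II or potassium array of preparation 1, Col3a1 was the 1 member called.

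Preparation 1 had the lowest mean log2 value for 28 of the 34 collagen probe sets (82.4%), 5 of the 10 of laminins (50%) and 13 of the 25 of integrins (52%), beside 40.2% of all tested probe sets. After quantile normalization these were 28, 5 and 11, beside 33.2% of all. With arrays scaled to the median of all probe sets they were 17, 5 and 7, beside 17.6% of all. Over the collagens the median log2 difference from preparation 1 was 0.27 for preparation 2 and 0.19 for preparation 3, and over all tested probe sets it was 0.03 and 0.01. The 10 endothelial markers summed to 30440.0 to 32827 in preparation 1, 36426 to 37684 in preparation 2 and 38402 to 39996 in preparation 3, and 5 of them passed the same F test. The 10 capsule fibroblast markers summed to 9867 to 12072, 11588 to 13435 and 11914 to 12614, with 2 called, the 9 smooth muscle and pericyte markers of 10 listed to 9579 to 9786, 11812 to 12998 and 9177 to 9979, with 2 called, and the 12 macrophage markers to 9938 to 11745, 14930.1 to 15459.5 and 12625 to 13201, with 3 called. The summed zona glomerulosa markers overlapped between preparations (94927 to 96397, 90302 to 100650.0 and 96327 to 102955), with 0 called. Other lists set preparation 1 apart as well. The 3 tested zona fasciculata markers of 5 listed ran the other way from the collagens, with sums of 39265 to 40584, 32753 to 36921 and 34944 to 37053 and 2 called. The 5 lymphocyte markers summed to 1209.5 to 1299, 1637 to 1753 and 1549 to 1708, with 1 called, and the 3 tested red cell and platelet markers of 8 listed to 16344 to 17135, 18376 to 21290.5 and 19009.7 to 20982, with 1 called. The 6 medulla markers of 7 listed were highest in preparation 3 (2228 to 2607, 2066 to 2279 and 2862 to 3328), with 1 called, and the 2 tested Schwann cell markers of 6 listed summed to 319 to 463, 384 to 487 and 249.5 to 328, with 0 called. The part of such cells in the collagen values was not tested.

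**Figure D4:**
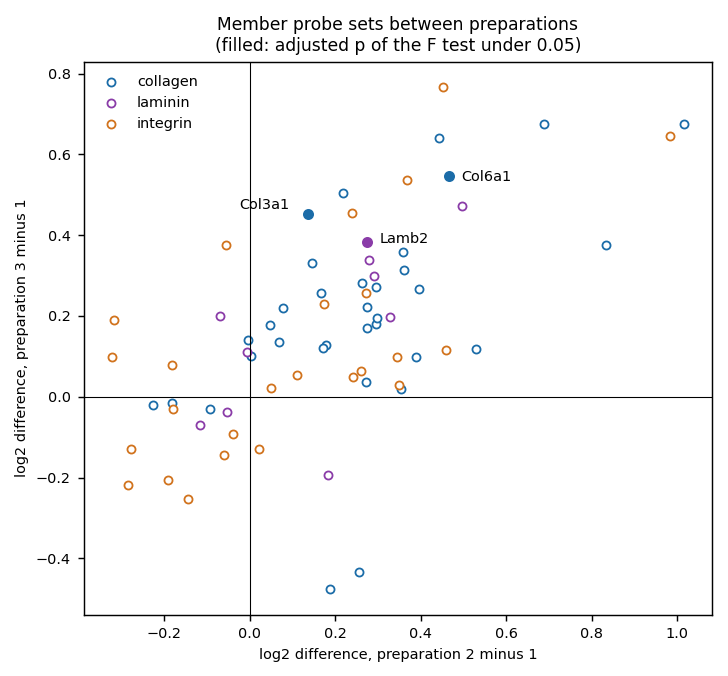
Log2 difference of preparation 2 (horizontal axis) and preparation 3 (vertical axis) from preparation 1 for the 69 tested collagen, laminin and integrin probe sets, each a mean over the 3 tubes of a preparation; filled points passed the F test. Most collagens lie to the upper right of 0, and Col3a1, Col6a1 and Lamb2 are labelled.

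Other genes of matrix and adhesion were taken from 5 lists with 94 tested genes, each at its brightest probe set. Ang II gave 3 higher and 1 lower, potassium 0 higher and 2 lower, and Ang II against potassium 5 higher and 1 lower, which is 4.26%, 2.13% and 6.38% of the 94, beside the 2.20%, 5.36% and 4.79% of all tested probe sets given above. None of the 13 tested basement membrane partners (such as nidogens and perlecan), the 21 matrix glycoproteins and proteoglycans (such as fibronectin, decorin and thrombospondins) or the 19 genes of collagen synthesis and crosslinking passed limma's test in any comparison. At an unadjusted p of 0.05 the counts after Ang II, after potassium and between the stimuli were 0, 2 and 2 of the 13, 1, 1 and 0 of the 21 and 0, 2 and 2 of the 19. In the same order 14.5%, 18.8% and 16.2% of all tested probe sets reached that p. The medians of these lists lay between -0.09 and 0.06 on the log2 scale. The calls were in the 27 integrin adaptors and the 14 other matrix receptors.

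Sdc1 encodes syndecan 1, a heparan sulfate proteoglycan that binds collagens and fibronectin beside the integrins. Its signals were 792, 762 and 926 in the control tubes, 1231, 1100.4 and 1248 in the Ang II tubes and 303, 381 and 470.2 in the potassium tubes. The 3 groups did not overlap, with the Ang II tubes highest and the potassium tubes lowest. Sdc1 rose 1.44-fold after Ang II (0.52 ± 0.12, adjusted p = 0.033) and fell 2.13-fold after potassium (-1.09 ± 0.12, adjusted p = 4.2e-05). The stimuli differed 3.06-fold (1.61 ± 0.12, adjusted p = 1.3e-06), in the same direction in 3 of 3 preparations. The calls after potassium and between the stimuli held in all 20 alternative settings, whereas the call after Ang II ended in 11 of them, including every setting that left out a preparation, a control array or an Ang II array, with adjusted p-values of up to 0.22. A second probe set had log2 fold changes of 1.24 ± 0.41 after Ang II, -0.77 ± 0.41 after potassium and 2.01 ± 0.41 between the stimuli (adjusted p = 0.16, 0.34 and 0.0098).

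Among the adaptors, Bcar1, which encodes the scaffold p130Cas of focal adhesions, was at 2031, 2074 and 2331 in the control tubes, 1292, 1385 and 1362 in the Ang II tubes and 1819.8, 1687 and 1979.7 in the potassium tubes. Every Ang II tube was below every other tube. Bcar1 fell 1.58-fold after Ang II (-0.66 ± 0.08, adjusted p = 0.00026), and it was lower with Ang II than with potassium (-0.44 ± 0.08, adjusted p = 0.0050). The first call ended only without an intensity trend in the variance (adjusted p = 0.072), and the second also without preparation 1 (0.12) and without preparation 3 (0.060).

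Lims1 encodes PINCH1, a partner of integrin-linked kinase, and was at 2328, 2310.2 and 2177 in the control tubes, 2883, 3122 and 2987 in the Ang II tubes and 2279.8, 2434 and 2267 in the potassium tubes. Every Ang II tube was above the 6 others, and Lims1 rose 1.32-fold (0.40 ± 0.07, adjusted p = 0.0062). The call ended in 5 of 20 settings, with adjusted p-values of up to 0.17. These were the fits without an intensity trend, without preparation 1, 2 or 3 (adjusted p = 0.069, 0.061 and 0.078) and without Ang II replicate 3 (0.053). Fermt2 encodes kindlin 2, which activates integrins through the beta tail, and was at 5029, 4840.1 and 4667 in the control tubes, 5789.7, 6906 and 5813 in the Ang II tubes and 5163, 4606 and 4211 in the potassium tubes. It rose 1.27-fold after Ang II (0.34 ± 0.08, adjusted p = 0.033), again with no overlap, a call that ended in 11 of 20 settings, among them the fits without any 1 preparation, any 1 control array, Ang II replicate 2 or Ang II replicate 3 (adjusted p of up to 0.29). Its second probe set differed by 0.10 ± 0.13 (adjusted p = 0.80).

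Vcl encodes vinculin, which ties talin to actin, and was at 4630.2, 6196 and 5394 in the control tubes, 4837, 5787 and 5523 in the Ang II tubes and 3973, 5335 and 3762 in the potassium tubes. It was lower with potassium in 3 of 3 preparations, though preparations differed enough for the groups to overlap. Vcl fell 1.25-fold after potassium (-0.32 ± 0.08, adjusted p = 0.030), and its other probe sets gave -0.35 ± 0.08 and -0.33 ± 0.24 (adjusted p = 0.014 and 0.51). The call at the first ended in 12 of 20 settings, with adjusted p-values of up to 0.39, among them the fits without preparation 1 (0.13) or 3 (0.22) and without any control array, Ang II replicate 1, potassium replicate 1 or potassium replicate 3 (0.050 to 0.19). Lims1, Fermt2, Vcl and Vasp, an actin regulator at adhesions, were higher with Ang II than with potassium (0.36 ± 0.07, 0.40 ± 0.08, 0.32 ± 0.08 and 0.32 ± 0.08, adjusted p = 0.0073, 0.0066, 0.032 and 0.024). The other probe sets of Vcl differed by 0.37 ± 0.08 and 0.40 ± 0.24 in that comparison (adjusted p = 0.010 and 0.47). That of Fermt2 differed by 0.44 ± 0.13 (adjusted p = 0.065). The 4 calls at the brightest probe sets ended in 4, 7, 10 and 11 of 20 settings. Their adjusted p-values were up to 0.13, 0.18, 0.34 and 0.20 (Lims1, Fermt2, Vcl and Vasp). All ended without an intensity trend. They also ended without preparation 1 or 3 for Lims1 and Vcl, 2 or 3 for Fermt2 and any 1 preparation for Vasp. Leaving out 1 array ended the call of Fermt2 (Ang II replicate 2, potassium replicate 2 or 3) and of Vcl (Ang II or potassium replicate 1 or 3). It also ended that of Vasp (any Ang II array, potassium replicate 2 or 3). Without the preparation as a block those of Vcl and Vasp ended, and without a filter that of Vcl. With arrays scaled to the median of all probe sets these 4 calls ended, while those of Sdc1 and Bcar1 were kept. One smooth muscle marker, Acta2, passed the test after Ang II, 1 of the 9 tested, while the summed markers of that list overlapped between groups (9177 to 11812, 9786 to 12998 and 9579 to 12316 in control, Ang II and potassium tubes). Its part in the values of the adaptors was not tested.

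**Figure D5:**
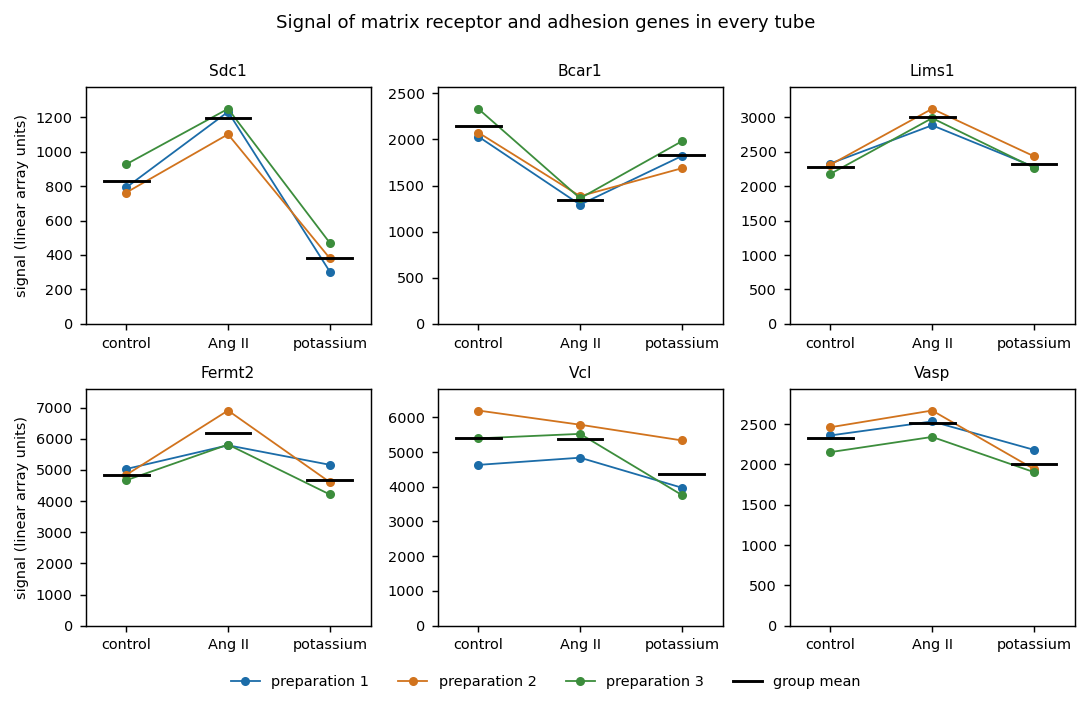
Linear signal (vertical axis, from 0) of Sdc1 and 5 adhesion genes in the control, Ang II and potassium tubes, with 1 point per tube, lines joining the tubes of a preparation and bars at group means (n = 3). The Sdc1 tubes fall into 3 separate ranges, and the Bcar1 tubes with Ang II lie below all others.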

How the data were processed

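RNA from 9 tubes of rat zona glomerulosa cells was measured on 9 arrays, and the deposited table holds 1 linear intensity per probe set and array. GCOS is named, without a version, per the submitters' processing notes; how background was treated is not stated there. In the deposited intensities the mean without the extreme 2% at either end was 500.2 on each array, and array medians ran from 128 to 173, highest in control replicate 2. The number of arrays limits the precision.

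Of 31099 probe sets 57 controls were left out. Symbols came from the platform annotation, updated by Entrez identifier from RefSeq genes of GRCr8. Probe sets with 1, several or no symbols numbered 20826, 436 and 9780, and all 112 members matched. Log2 values, log2(signal + 16), were computed here from the deposited intensities, with no further scaling. Models were fitted in R 4.3.3 with limma 3.58.1, using a variance trend with intensity (4 residual and 10.7 prior degrees of freedom), with Benjamini-Hochberg adjustment and a threshold of 0.05. The preparation was a block because the design text draws each set of tubes from 1 preparation. Deviations from the group means correlated at 0.09 to 0.27 for the 9 pairs of 1 preparation and at -0.21 to 0.05 for the 18 pairs of different preparations and groups.

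Members and lists were chosen with earlier results of these data known. The text names members past the threshold, the 5 with the smallest p among those not past it in each comparison, a core of 24 genes, other probe sets of called genes, up to 4 called genes of each other list, and the genes taken by letters; further members were named to cover their roles after their values were seen. The model was tested on simulated data for Ang II minus control, with 50 probe sets changed at each fold. It called 32% of those changed 1.5-fold, 78% at 2-fold, 76% at 3-fold and 92% at 4-fold, with 7 false calls. The 200 changed probe sets were drawn at random from all tested ones, with independent normal noise, and were fewer than the 409 called after Ang II. These shares were not measured for the members. Of the 77 member genes 60 had a RefSeq promoter window.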

Additional observations from a re-analysis of the deposited data

Results flagged for a closer look

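The effects of Ang II and potassium against control, which share the control tubes, were compared through the direct test of Ang II against potassium. By that test they differed at 7 genes, 1 of them a member. The log2 difference (Ang II minus potassium) was 0.23 for Itgb1, 0.32 for Vcl, 0.36 for Lims1, 0.40 for Fermt2, -0.44 for Bcar1, 0.32 for Vasp and 1.61 for Sdc1, with adjusted p-values in limma of 1.3e-06 (Sdc1) to 0.049 (Itgb1). Each had the same direction in 3 of 3 preparations, as had 38.9% of all tested probe sets (7241 of 18625). The genes were picked by this same test, so that agreement adds no separate support. Of these 7, Sdc1 alone passed the test against control in opposite directions. Groups of 3 tubes were too small for a test of single outlying tubes.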

How the results depend on the processing

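Results were recomputed under 20 alternative settings, or 19 where a probe set did not pass the filter at the 60th percentile or, between preparations, where the block could not be left out, and no called value reversed. Counts of called members were 0, 1 and 1 (for Ang II, potassium, and the one stimulus against the other) and those of other matrix and adhesion genes 4, 2 and 6. Without the replicate block, the member counts were 0, 0 and 0 and the other counts 2, 1 and 4. That fit called 197, 506 and 442 of all tested probe sets, beside 409, 998 and 892 as reported. Without an intensity trend the member counts were 0, 0 and 0 and the other counts 0, 1 and 1. All tested probe sets gave 38, 258 and 156 calls there, and 0 members were called between preparations (3 as reported). Without a filter the member counts were 0, 1 and 0 and the other counts 3, 1 and 5, with 325, 816 and 736 calls among all 31042. With the filter at the 60th percentile 0, 1 and 2 members were called, with 452, 1082 and 995 calls among all 12417. With quantile normalization 1, 2 and 1 members were called, with 381, 972 and 866 calls over all. With arrays scaled to the median of all probe sets the member counts were 2, 3 and 0 and the other counts 5, 1 and 2; this scaling moved the median of all log2 fold changes from -0.03 to 0.09 after Ang II and from -0.02 to 0.10 after potassium, and that of the members to 0.14 and 0.15. It turned 310 higher and 99 lower calls over all probe sets into 431 and 33 after Ang II, 518 and 480 into 722 and 177 after potassium, and 576 and 316 into 351 and 206 between the stimuli. Leaving out 1 array or preparation gave 0 to 1, 0 to 1 and 0 to 2 members, 1 to 4, 1 to 2 and 1 to 6 other genes, and 0 to 4 members between preparations. Over all tested probe sets such fits called 143 to 454 after Ang II, 432 to 977 after potassium and 275 to 1012 between the stimuli. Beyond these settings the cause of a lost call was not tested. Pseudocounts of 4 and 64 left the member counts as reported. The 95% interval reached past 1.5-fold for 26, 23 and 23 of the 73 members, so a change of that size was not excluded for them at this number of arrays.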

Other observations

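The 39 member probe sets that were not tested had signals between 0.549 and 221. For 22 genes no probe set was tested. Among them were 14 collagen genes, such as Col2a1 and Col10a1 of cartilage, Col17a1 of epithelial attachment and Col4a4 of kidney basement membrane, the laminin genes Lama1, Lama3 and Lamb3, and the integrin genes Itga11, Itgad, Itgam and Itgb6. Itgam, the alpha M subunit of macrophages and granulocytes, was at 11.3 to 74.3, and Itgb6, an epithelial subunit, at 3.59 to 90.1. Such low signals give no measure of a change.

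Of the 60 member genes with a RefSeq window of 250 bases before the start, 9 held the half-site TGACG (18.2% of all windows did), 3 held TGANTCA (6.34%), 2 held TGACGTCA (1.59%) and 0 held AAAGGTCA (1.24%). The genes with the full TGACGTCA element were Col24a1 and Lamb3, and neither had a tested probe set.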
